A study of Zea mays with 6 samples.

Results

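The spikelet meristem determinacy genes of maize described here are 3 members of the AP2/ERF family of transcription factors, chosen by gene ID: branched silkless1 (bd1, Zm00001d022488), indeterminate spikelet1 (ids1, Zm00001d034629) and sister of indeterminate spikelet1 (sid1, Zm00001d019230). They are 3 of the 46272 gene IDs in the count tables. The rule of choice used no measured value, but it was made with earlier results of these data known. The names came with the list of IDs, since the tables pair no ID with a name, and no source used here could check them. Values given for bd1 are thus those of Zm00001d022488, whichever gene that ID stands for, and likewise for ids1 and sid1.

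The libraries were made from poly(A) RNA of young, field-grown ears 2 to 3 mm long, with 3 replicates from wild-type (WT) plants of the inbred line B73 and 3 from ra3;tpp4 double mutants. The product of RAMOSA3 (ra3) is an enzyme that removes phosphate from trehalose-6-phosphate and keeps the maize inflorescence from branching too much, and tpp4 encodes a related enzyme. The sources used here do not give the alleles, the inbred background of the mutant or the number of ears in a library, so effects of background cannot be told apart from those of the mutations.

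A maize ear first makes spikelet pair meristems, which divide into spikelet meristems, which in turn make florets. In maize, bd1 encodes an ERF-type factor that gives the spikelet meristem its identity, and ears that lack it form branches in place of spikelets. The AP2-type factor encoded by ids1 makes the spikelet meristem determinate, so that ids1 mutants form extra florets, and sid1, its close relative, acts together with it. Transcripts of ids1 and sid1 are known targets of the microRNA miR172, one source of which is the tasselseed4 locus. That regulation also acts on translation, so mRNA levels do not give protein levels.

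The transcripts of ids1 and sid1 were higher in ra3;tpp4 ears than in WT ears, whereas bd1 was close to undetected in both genotypes. The level of ids1 rose 1.61-fold and that of sid1 1.90-fold. Of the 3 genes, 2 had enough counts to be tested, and both were called higher (edgeR's quasi-likelihood test, at an adjusted p under 0.05 by Benjamini-Hochberg). Of all 21127 IDs tested, 0.918% were called higher and 1.47% were called in either direction. With so few members, this comparison of shares is only a description.

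In WT, ids1 stood at 64.0, 80.2 and 91.1 CPM (counts per 1000000 counts over all gene IDs) in replicates 1, 2 and 3. In ra3;tpp4 it stood at 118, 135 and 121 CPM. Every mutant library lay above every WT library, with a gap of 26.5 CPM between the highest WT library and the lowest mutant library. Such a separation in the higher direction was found for 8.55% of all tested IDs. The mean level of ids1 was 78.5 ± 13.6 CPM (SD, n = 3) for WT, against 125 ± 9.05 CPM (SD, n = 3) for the mutant. The log2 change was 0.69 (SE 0.123, 95% interval 0.41 to 0.97), with an edgeR adjusted p of 0.0331. The interval corresponds to 1.33-fold to 1.95-fold.

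The call for ids1 was lost in 4 of the 6 fits that left out a library. Its edgeR adjusted p was 0.117 without WT replicate 2, and 0.0846, 0.0520 and 0.0795 without ra3;tpp4 replicates 1, 2 and 3. It was 0.0275 without WT replicate 1 and 0.0394 without WT replicate 3. The log2 change of ids1 in these 6 fits ran from 0.55 to 0.81.

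The sister gene sid1 stood at 12.9, 13.7 and 15.1 CPM in WT replicates 1, 2 and 3. In ra3;tpp4 it stood at 23.4, 27.8 and 27.1 CPM. The genotypes did not overlap, a separation shared in this direction by 8.55% of all tested IDs, and the gap between them was 8.33 CPM. Its mean level was 13.9 ± 1.07 CPM (SD, n = 3) for WT, against 26.1 ± 2.37 CPM (SD, n = 3) for the mutant. The log2 change of sid1 was 0.93 (SE 0.110, 95% interval 0.69 to 1.17), with an edgeR adjusted p of 0.00437. The call for sid1 held without any 1 of the 6 libraries, with adjusted p from 0.00246 to 0.0292.

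**Figure D1:**
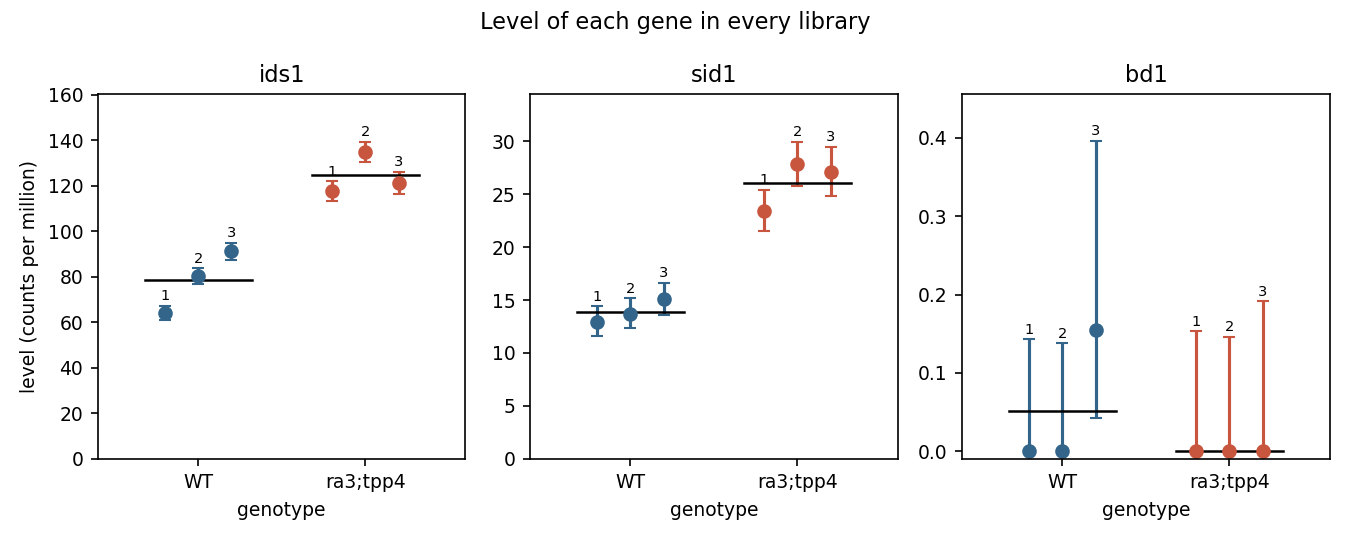
Level of ids1, sid1 and bd1 in CPM (vertical axes, a separate scale for each gene) in the WT and ra3;tpp4 libraries, numbered by replicate. Points are libraries, bars are exact 95% Poisson intervals for counting error, and lines are group means. For ids1 and sid1 all mutant points lie above all WT points, and for bd1 only WT replicate 3 lies above 0.

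The spread of ids1 between libraries of a genotype is given here beside its counting error. The WT libraries held 1657, 2146 and 2352 counts of ids1, and the coefficient of variation of its WT level was 17.4%, against 2.21% from counting error. In ra3;tpp4, with 2830, 3403 and 2337 counts, these values were 7.27% and 1.87%. The counting interval of WT replicate 1, 61.0 to 67.2 CPM (exact 95% Poisson), lay below that of WT replicate 2, 76.9 to 83.7 CPM.

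For sid1, whose lower counts carry a larger counting error, the spread between libraries lay closer to the counting error. The WT libraries held 335, 367 and 389 counts of sid1, with a coefficient of variation of 7.72% against 5.24% from counting. The mutant libraries held 563, 703 and 522 counts, with 9.08% against 4.10%.

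Both genes lay in the upper tail of the changes over all tested IDs. The median log2 change over all 21127 tested IDs was -0.0022, with quartiles of -0.12 and 0.12. A log2 change at least as high as that of ids1 was found in 773 of them, or 3.66%, and one at least as high as that of sid1 in 462, or 2.19%. Ordered by the edgeR p, sid1 was number 22 and ids1 number 240, of 310 IDs called.

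**Figure D2:**
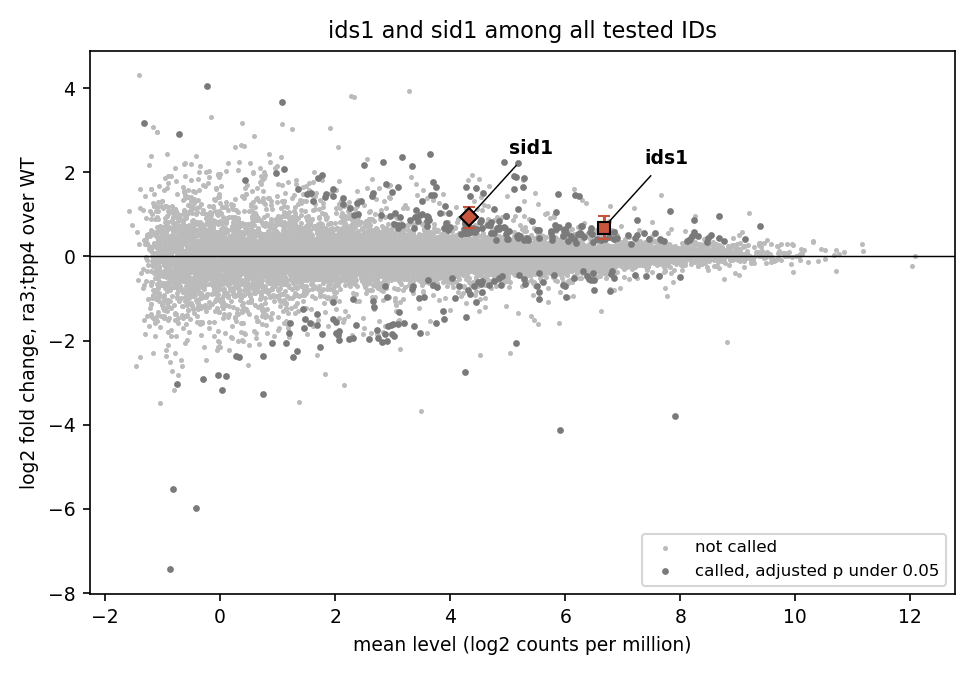
Log2 fold change of ra3;tpp4 over WT (vertical axis) against mean level in log2 CPM (horizontal axis) for all 21127 tested IDs. Dark points are the 310 called IDs, and the diamond and the square are sid1 at 0.93 and ids1 at 0.69, with 95% intervals.

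The ears were sampled whole. More cells that express ids1 and sid1 and more RNA per such cell therefore cannot be told apart. Meristem and tissue markers could not serve as a check, because none of the 31 gene symbols looked up, kn1, zfl1 and ra1 among them, was paired with an ID of the count tables; 22 of the 31 are in RefSeq's gene table, made on assembly Zm-B73-REFERENCE-NAM-5.0. For the same reason other genes of spikelet development are not analysed here.

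Libraries of the genotypes also differed in where their records went. Gene IDs received 65.5% to 68.9% of all records in WT and 75.3% to 77.7% in ra3;tpp4, while alignments that were not unique made up 19.3% to 22.2% in WT and 11.0% to 15.3% in ra3;tpp4. Library totals over gene IDs were 25815984 to 26752609 in WT and 19291332 to 25254164 in the mutant. With all records in place of gene counts as the total, ids1 had 52.4 ± 9.02 CPM (SD, n = 3) for WT and 95.2 ± 5.81 CPM (SD, n = 3) for the mutant. On the same total, sid1 had 9.29 ± 0.671 CPM (SD, n = 3) for WT and 20.0 ± 1.79 CPM (SD, n = 3) for the mutant. On that scale the log2 change was 0.86 for ids1 and 1.10 for sid1, and the median over all tested IDs was 0.17. Scaled by gene counts alone, without TMM, the log2 change was 0.67 for ids1 and 0.91 for sid1, and the median was -0.025. The change of total thus moved both genes and the median by a like amount. It is therefore no separate check on the rise of these genes relative to other IDs. Which of these totals is the better one, and the part that the difference in unassigned records has in any change, was not tested.

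The relation between ids1 and its sister was compared within libraries, where scaling plays no part. WT replicates 1, 2 and 3 held 4.95, 5.85 and 6.05 counts of ids1 for each count of sid1. In ra3;tpp4 the ratio was 5.03, 4.84 and 4.48. The genotypes overlapped, since WT replicate 1 had a lower ratio than mutant replicate 1. The mean ratio was 5.61 ± 0.586 (SD, n = 3) for WT and 4.78 ± 0.280 (SD, n = 3) for the mutant. On the log2 scale the mutant minus WT difference was -0.23, which did not pass an exact permutation test (two-sided, p = 0.2, where 3 libraries against 3 cannot go below 0.1). That design cannot reach 0.05, so it does not decide whether the genes rose by unequal amounts. These ratios are of counts and not per transcript length, so they do not say which gene has more transcript.

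The genes followed each other among replicates as well. In WT, replicate 1 was lowest and replicate 3 highest for both, and in ra3;tpp4, replicate 1 was lowest and replicate 2 highest for both. Over the 6 libraries, the Pearson r of log2 CPM was 0.958, and 0.801 after the mean of each genotype was subtracted. The first r includes the difference between genotypes, and the second was not compared with that of other IDs. The libraries and their scaling are common to both genes, so the correlation is a description.

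**Figure D3:**
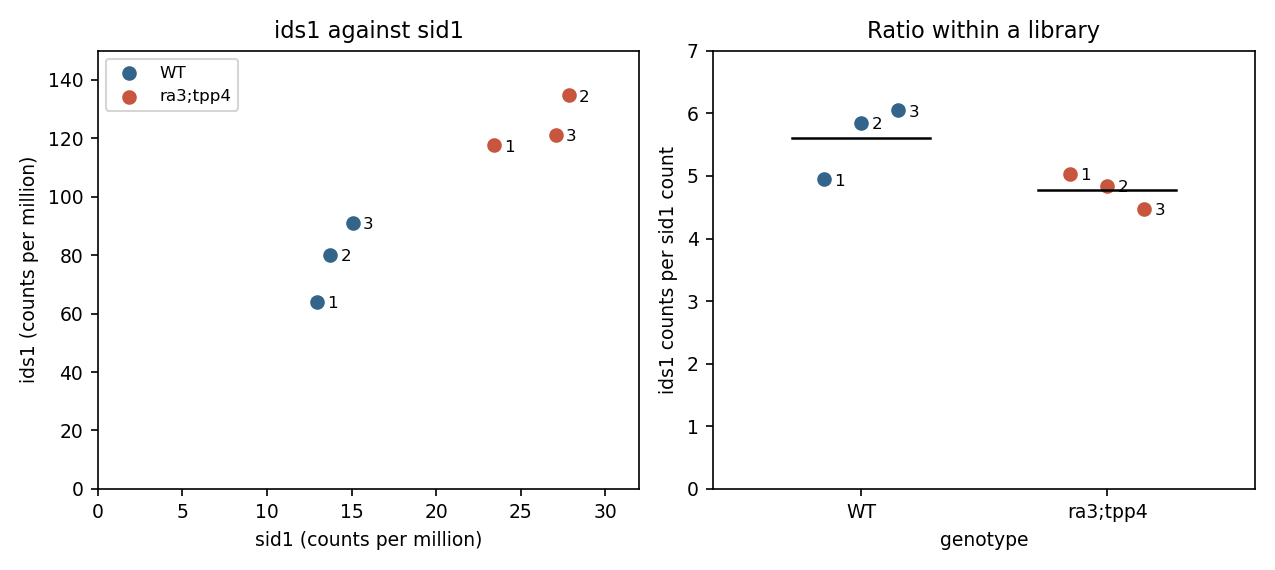
Left, ids1 against sid1 in CPM, with each point a library numbered by replicate. Right, counts of ids1 for each count of sid1 in each library, with lines at the group means of 5.61 in WT and 4.78 in ra3;tpp4; the genotypes separate on the left and overlap on the right.

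Many other IDs shared this pattern. Of 18356 other Zm00001d IDs whose mean log2 CPM was 1 or more, 154 had an r above 0.95 with ids1 and 142 with sid1, and sid1 was number 115 in the order of likeness to ids1. The ID most like ids1 was Zm00001d032685 (r = 0.997, n = 6 libraries), with 49.0 ± 1.18 CPM (SD, n = 3) for WT and 52.9 ± 1.17 CPM (SD, n = 3) for the mutant. Its log2 change of 0.13 did not pass the test (edgeR adjusted p = 0.465), so a high r did not mean a change of like size. The ID most like sid1 was Zm00001d035562 (r = 0.997, n = 6 libraries), which rose from 277 ± 31.4 CPM (SD, n = 3) to 533 ± 39.6 CPM (SD, n = 3). Its log2 change was 0.97 (edgeR adjusted p = 0.00175). The count tables give no name for either ID, and with this many candidates and 6 libraries, some r near 1 arise from the search itself.

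The spikelet identity gene bd1 had a total of 4 counts in the 6 libraries, all of them in WT replicate 3. That library had 0.155 CPM of bd1 (exact 95% Poisson interval 0.0422 to 0.397). The other 5 libraries had 0 counts, which allows up to 0.112 to 0.156 CPM for a library (3 counts of its total). Their exact two-sided 95% Poisson intervals, drawn in the plot of levels, reach 0.138 to 0.191 CPM. Pooled over libraries, WT had 0.0510 CPM (exact 95% Poisson interval 0.0139 to 0.131). The 0 counts of ra3;tpp4 allow up to 0.0437 CPM by 3 counts, and their exact two-sided interval reaches 0.0538 CPM, above the WT value. These limits cover counting error only.

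The genotypes overlapped for bd1, and it fell below the filter on low counts, so no fold change is given. A difference in bd1 between the genotypes was not detectable at this depth. Of the 46272 IDs, 16421 had no count in any library, 4156 had 1 to 4 counts as bd1 did, and 25695 had more. Whether reads of bd1 went to the lines for ambiguous or not unique alignments was not tested. The low count was found in WT libraries of B73, the line of the reference genome, as well as in the mutant.

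The IDs with numbers next to those of the 3 genes were examined as their probable neighbours in the genome, although the sources used here do not say that numbers follow gene order. Within 50 numbers of bd1, 72 of 92 IDs had a count and 54 were tested. The low level of bd1 was thus not shared by most IDs around it: Zm00001d022487, numbered just below, had means of 29.6 CPM for WT and 28.4 CPM for the mutant, and Zm00001d022489, numbered just above, had 35.2 and 37.6 CPM.

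Among tested IDs within 50 numbers, edgeR called 0 of 54 around bd1, 0 of 57 around ids1 and 0 of 39 around sid1. Over all tested IDs it called 1.47%, so counts of 0 among this few IDs are near that share. At an unadjusted p under 0.05 there were 6, 5 and 2, where 13.4% of all tested IDs had such a p. DESeq2 called 2 around bd1, 1 around ids1 and 0 around sid1, against 3.58% of the IDs to which it gave an adjusted p. Limma-voom called 0 around each, against 1.61% of all tested IDs. The median log2 change was 0.017 around bd1, 0.015 around ids1 and -0.027 around sid1. None of the 57 IDs around ids1 and none of the 39 around sid1 had a log2 change as high as the gene itself, and the highest were 0.48 and 0.41. Over all tested IDs, 3.66% had a change at least as high as ids1 and 2.19% one at least as high as sid1. Among this few neighbours, a count of 0 is near those shares. In the gene order of that RefSeq table, which is of a later assembly than the counts, bd1 lies on the same chromosome as ra3, with 231 gene records between them. The gene sid1 lies on that chromosome too, and ids1 does not. These positions were found by gene name, and hold for the counted IDs only if their names, which could not be checked, are right. The position of tpp4 was not looked up. The part that linkage to the mutant ra3 or tpp4 alleles has in the change of sid1 or ids1 was not tested.

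**Figure D4:**
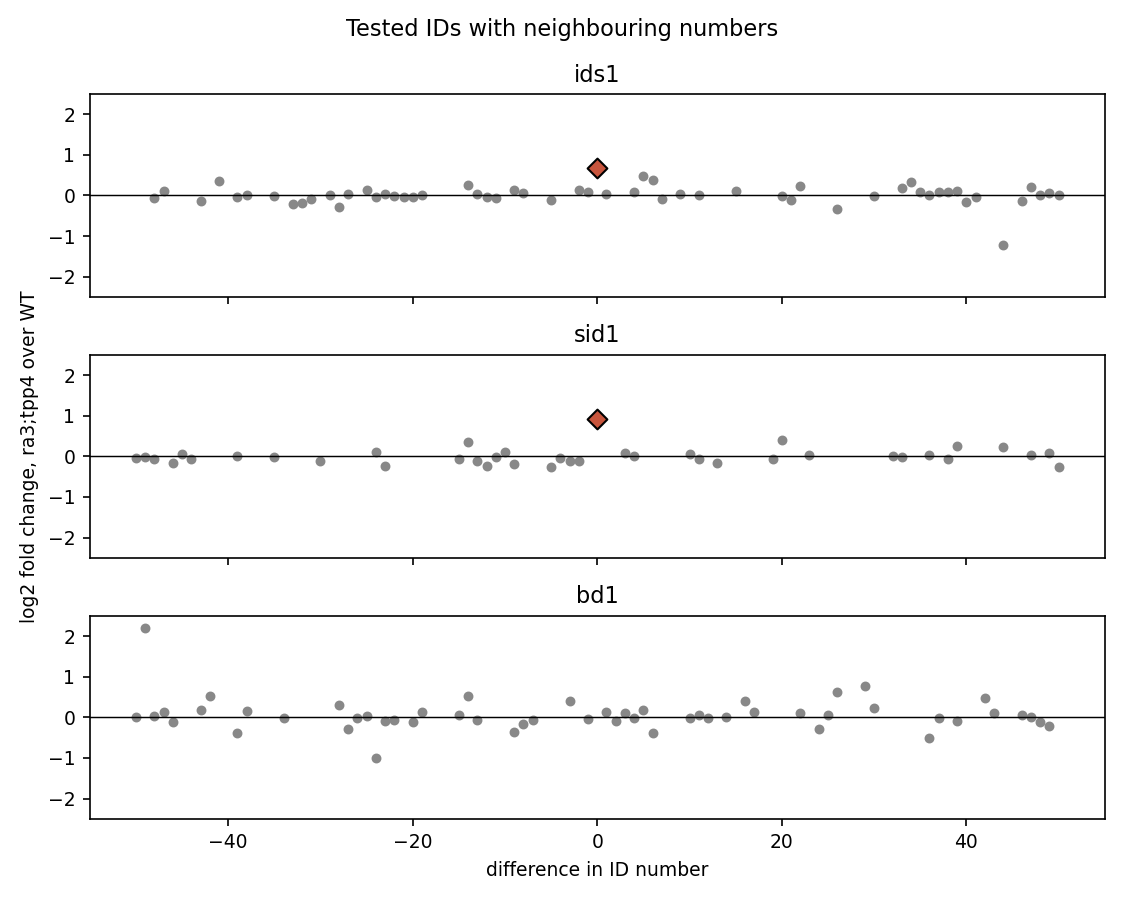
Log2 fold change of ra3;tpp4 over WT (vertical axes) for tested IDs within 50 numbers of ids1, sid1 and bd1, against the difference in ID number (horizontal axis). Diamonds are ids1 at 0.69 and sid1 at 0.93, which lie above all of their neighbours, and bd1 was not tested and has no diamond. Of all tested IDs, 3.66% had a change at least as high as ids1 and 2.19% one at least as high as sid1.

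Precursors of miR172, the microRNA that targets ids1 and sid1, gave few counts. Of 4 MIR172 precursor IDs, zma-MIR172e alone had counts, with 2 in each WT library and 0, 0 and 1 in ra3;tpp4 replicates 1, 2 and 3. The sum was 6 counts in WT (exact 95% Poisson interval 2.20 to 13.1) and 1 in ra3;tpp4 (0.0253 to 5.57). These intervals overlap, and the level of the mature microRNA was not measured. The 11 precursor IDs of MIR156, another microRNA family known for its role in maize inflorescences, summed to 1 count in WT (0.0253 to 5.57) and 6 in ra3;tpp4 (2.20 to 13.1), 4 of them from zma-MIR156k in replicate 1. None of these 15 precursors passed the filter on low counts.

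The settings of the analysis moved the changes of ids1 and sid1 little. With all 6 libraries in the fit and the scaling on gene counts, the log2 change of ids1 ran from 0.67 to 0.70 and that of sid1 from 0.91 to 0.93, and both were called in each of these fits. DESeq2 gave adjusted p of 6.15e-06 for ids1 and 5.64e-09 for sid1, and limma-voom gave 0.0244 and 0.00834.

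**Figure D5:**
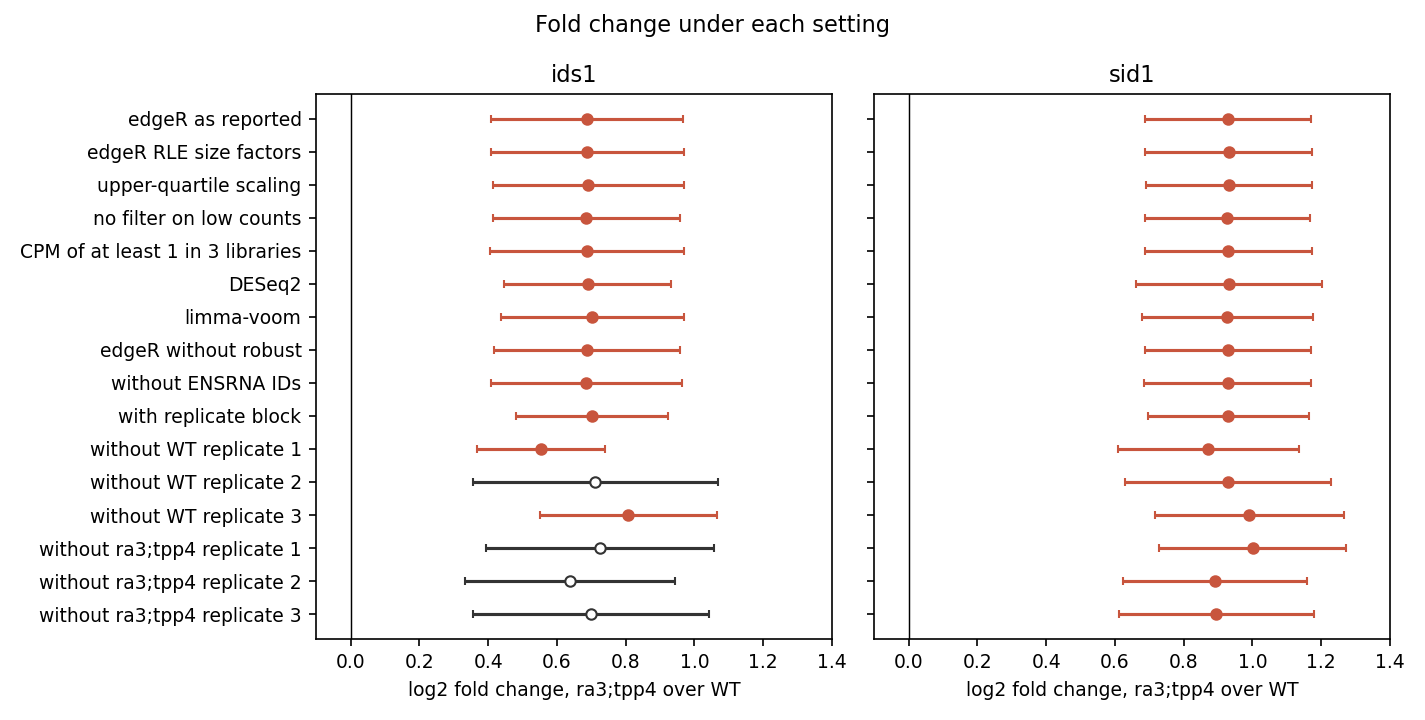
Log2 fold change of ra3;tpp4 over WT with 95% intervals (horizontal axes) for ids1 and sid1 under each setting (rows). Filled points have an adjusted p under 0.05 and open points do not; the 4 open points are fits of ids1 without WT replicate 2 or without any 1 of the mutant libraries.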

How the data were processed

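The authors deposited 1 table of raw counts for each library. Trimmomatic 0.36, HISAT2 2.1.0, HTSeq and the build B73 RefGen_v4 are named in the submitters' processing notes. The sources used here give neither annotation release nor strand setting, and reads shared by overlapping or near-identical genes may be lost or divided. The 5 HTSeq summary lines, 22.3% to 34.5% of all records, entered neither library sizes nor tests.

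Genotypes were compared in edgeR 4.0.16 (robust quasi-likelihood F test, TMM scaling, filterByExpr) in R 4.3.3, fitted on all IDs with Benjamini-Hochberg adjustment over 21127. Standard errors were derived from the F statistic. CPM were computed from the deposited counts with totals over gene IDs. Correlations used TMM-scaled log2 CPM. The series calls the replicates biological. Alternatives used DESeq2 1.42.0, limma 3.58.1 (voom), other scalings and filters, a replicate block and fits without each library.

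The members and lists were chosen with earlier results of these data known. The named IDs are the members, the ID most like each tested member (the rule took 3 for each, and those without a name in the tables were limited to 1), the nearest IDs by number around bd1, and microRNA precursors with counts. The neighbours of bd1 and zma-MIR156k were added after their values were seen. No sequence is shown.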

Additional observations from a re-analysis of the deposited data

How the results depend on the processing

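The direction of ids1 and sid1 was the same in all 17 alternatives run for each. The log2 change of sid1 ran from 0.87 to 1.10, with adjusted p under 0.05 in all 17. That of ids1 ran from 0.55 to 0.86, with adjusted p from 6.15e-06 to 0.117 and under 0.05 in 13 of 17. Leaving out a library gave 0.55 to 0.81 for ids1, 0.87 to 1.00 for sid1 and -0.32 to -0.17 for the ids1 to sid1 ratio. The 310 calls over all tested IDs became 58 to 471 when a library was left out, 511 with no filter on low counts, 818 in DESeq2 and, scaled by all records, 2128 (1976 higher, 152 lower, against 194 and 116). Calls rose to 471 without ra3;tpp4 replicate 2 and fell to 58 without WT replicate 3. The cause of these moves was not tested, beyond the shift of 0.17 in the median that scaling by all records brings. Both scalings without TMM were chosen after seeing the data. The labels do not say whether a replicate number marks a shared batch. Deviations from the group means correlated at -0.181, -0.123 and 0.154 between libraries numbered 1, 2 and 3. With so few libraries, these values do not decide whether such a batch exists. With the number as a replicate block, the log2 change was 0.70 for ids1 and 0.93 for sid1 with 290 calls in all, and the ratio's difference stayed at -0.23 (exact sign-flip test, two-sided, p = 0.5, smallest possible 0.25). The planned fold change of bd1 and its ratios to ids1 and sid1 gave no value, since 5 of 6 libraries had 0 counts. Depth limits statements on bd1 and the microRNA precursors.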
